A study of Mus musculus with 6 samples.

Results

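The genes described here are those that build ribosomes in the nucleolus and the subunits of RNA polymerase I, measured by poly(A) RNA sequencing in RAW 264.7 cells, a mouse macrophage line. Members were the protein-coding rows of the count table whose symbols begin with Utp, Nop, Nol or Rrp and a digit or with Polr1 and a letter, together with Imp3, Imp4, Fbl, Ncl, Npm1, Dkc1, Bop1, Pes1 and Wdr12. This gave 54 members of 57010 genes. Every sample received lipopolysaccharide, a bacterial product that drives macrophages to an inflammatory (M1) state. Extracellular vesicles from tendon stem cells followed, either from normoxic cultures (normoxic-EV, 3 samples) or from cultures preconditioned by hypoxia (hypoxic-EV, 3 samples). RAW 264.7 is a virus-transformed line, the labels do not name the species of the vesicle donors, and RAW 264.7 cells without vesicles were not analysed here. Differences are therefore between the vesicle types.

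RNA polymerase I transcribes the ribosomal DNA into a long precursor that holds the 18S, 5.8S and 28S ribosomal RNAs. The small-subunit processome, built of UTP and other proteins around the U3 small nucleolar RNA, folds and cleaves the 18S part. Small nucleolar ribonucleoproteins (snoRNPs) of the box C/D and box H/ACA classes methylate and pseudouridylate the precursor, and a further set of factors assembles the large subunit. In growing cells this is among the largest consumers of energy and nucleotides, and in macrophages it is known to change with activation and with proliferation. Poly(A) selection measures the messenger RNAs of these proteins and not ribosomal RNA or the rate of its synthesis.

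Sequencing gave 16751665 to 23422328 counts a library. A gene with 0 counts could still have had up to 3, equal to 0.129 to 0.179 CPM depending on the library, by counting error alone. CPM are counts scaled to library size, here with TMM factors unless library totals are named. All 10 macrophage markers of a list were detected, with a summed level of 10509 to 10959.6 CPM in normoxic-EV and 8594 to 8829 CPM in hypoxic-EV, on library totals. Of 12 stromal and tendon markers, 5 (Col1a2, Col3a1, Tnmd, Thbs4 and Fmod) were at 0 in all libraries, and the list summed to 1.01 to 1.87 CPM in normoxic-EV and 0.939 to 1.49 CPM in hypoxic-EV. Lyz2 made up most of the macrophage sum and of its difference, with TMM-scaled group means of 7946 and 6091 CPM. Of the 10 markers 6 fell, 2 rose and 2 (Cd68 and Mrc1) were not called, with log2 fold changes from -0.80 for Adgre1 to 1.02 for Csf1r. Among lymphocyte genes, Cd79a rose at a level near the counting limit, with 0.179, 0.467 and 0.267 CPM in normoxic-EV and 0.826, 0.766 and 0.775 CPM in hypoxic-EV (edgeR adjusted p = 0.00849). The part of these markers in the results that follow was not tested, and in bulk RNA fewer cells of a type and less RNA per cell cannot be told apart. Separate cultures are not stated for the replicates, and p-values thus rest on a spread between samples that may be technical only.

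In cells given hypoxic-EV, ribosome biogenesis transcripts were more often higher than lower, by small amounts. Of 52 members tested, 19 (36.5%) were higher and 7 (13.5%) lower at an adjusted p under 0.05 in the quasi-likelihood test of edgeR. Among all 13303 genes tested, 22.7% were called higher and 21.5% lower, 44.2% in all, and among protein-coding genes 24.7% and 22.8%, 47.5% in all. The most abundant members, Npm1 and Ncl, rose, as did the snoRNP enzyme genes Fbl and Dkc1, the polymerase I subunit gene Polr1b and the large-subunit factor genes Rrp1b and Bop1. Rrp36, Utp23 and Rrp9 of the small-subunit processome, Nol12 and the polymerase I subunit gene Polr1h fell. The remaining 26 tested members were not called.

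Fold changes of the members lay between -0.47 (Rrp36) and 0.55 (Rrp1b) on the log2 scale. A size of 0.5 or more was reached by 2 of 52 members, Rrp1b and Dkc1, and by 2368 of all 13303 genes tested. The median over the members was 0.07, beside -0.0011 over all genes tested. In 22 members every hypoxic-EV library was above every normoxic-EV library, and in 9 every one was below, where 26.6% and 26.1% of all tested genes, and 28.9% and 27.1% of the protein-coding ones, showed such a separation. The authors' deposited table of their own comparison holds 462 genes, each with an absolute log2 fold change of 1 or more. The normalized counts they deposited cover 23310 genes, so the 462 are a small share. Of the members 0 are among the 462, which at that share says little about them. Nol3 and Nol4 had 0 counts in each library and were not tested.

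**Figure D1:**
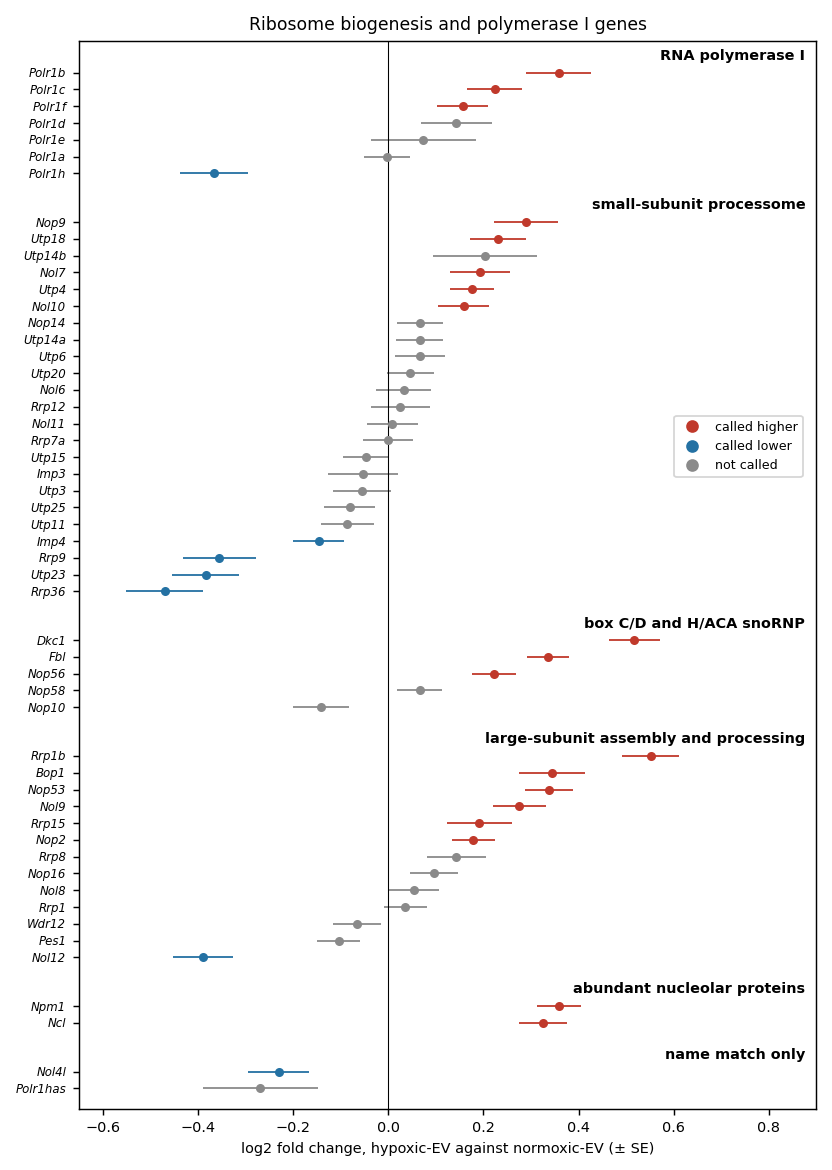
Log2 fold change (x axis, hypoxic-EV against normoxic-EV, bars are SE) of the 52 tested members, grouped by role and coloured by the call of edgeR's test at an adjusted p under 0.05. Called increases are found in each main role, reaching 0.55 for Rrp1b, and the lowest value is that of Rrp36 at -0.47.

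Npm1 and Ncl encode nucleophosmin and nucleolin, abundant nucleolar proteins that act as chaperones of ribosome assembly and in ribosomal RNA transcription and processing. Npm1 stood at 1499, 1499 and 1494 CPM in normoxic-EV libraries 1 to 3 and at 1883, 2023 and 1854 CPM in hypoxic-EV libraries 1 to 3. All hypoxic-EV libraries were above all normoxic-EV libraries, and hypoxic-EV replicate 2 was highest. The change was 1.28-fold (log2 fold change 0.36, SE 0.0469, edgeR adjusted p = 2.38e-06). Ncl stood at 1759, 1726 and 1762 CPM in normoxic-EV and at 2137, 2361 and 2079 CPM in hypoxic-EV. It had the same order of libraries in hypoxic-EV as Npm1, and its change was 1.25-fold (log2 fold change 0.33, SE 0.0504, edgeR adjusted p = 2.04e-05).

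These genes carried much of the members' RNA. All 54 members together took 0.787 ± 0.00685% of the counts in normoxic-EV and 0.8998 ± 0.0267% among hypoxic-EV samples (SD, n = 3). Ncl and Npm1 alone took 0.324 ± 0.00123% and 0.411 ± 0.0227%. Without them the share was 0.456% to 0.466% in normoxic-EV libraries and 0.484% to 0.492% in hypoxic-EV libraries, which did not overlap. No test was made on these sums.

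RNA polymerase I is represented by 7 members, of which 3 rose (42.9%) and 1 fell (14.3%), beside 22.7% and 21.5% of all genes tested. Polr1a and Polr1b encode the pair of large subunits that form its catalytic centre. Polr1a stood at 120.4, 133 and 129 CPM in normoxic-EV and at 127, 128 and 127 CPM in hypoxic-EV. The groups overlapped, and its log2 fold change was -0.0024 (SE 0.0489, edgeR adjusted p = 0.975). Polr1b, in contrast, stood at 47.4, 48.2 and 56.6 CPM in normoxic-EV and at 69.9, 63.5 and 62.7 CPM in hypoxic-EV. The groups did not overlap, and the change was 1.28-fold (log2 fold change 0.36, SE 0.0679, edgeR adjusted p = 0.000203).

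Polr1c, which encodes a subunit shared with RNA polymerase III, rose by 0.22 on the log2 scale (edgeR adjusted p = 0.00305). Polr1f, encoding a stalk subunit, rose by 0.16 (edgeR adjusted p = 0.0203), but the call was lost without normoxic-EV replicate 1 (adjusted p = 0.0539), without normoxic-EV replicate 2 (0.138) and without hypoxic-EV replicate 2 (0.0561). Polr1d, whose product pairs with that of Polr1c, had a log2 fold change of 0.14 and was not called (edgeR adjusted p = 0.129), although it was without normoxic-EV replicate 1 (0.00859) and without the low-count filter (0.0323). Polr1e, encoding a subunit that acts in initiation and elongation, had the lowest level per length of these subunits, at 3.28 ± 0.400 FPKM in normoxic-EV (SD, n = 3), with a log2 fold change of 0.07. The opposite-strand gene Fbxo10 overlaps Polr1e and had 27.3% as many counts. Strand use in counting is not given, so here and below reads of overlapping genes cannot be told apart.

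Polr1h, encoding the small zinc-binding subunit of RNA polymerase I, was the single member of this role to fall. It stood at 31.1, 28.8 and 31.0 CPM in normoxic-EV and at 23.1, 24.7 and 22.8 CPM in hypoxic-EV. Every hypoxic-EV library was below every normoxic-EV library (1.29-fold lower, log2 fold change -0.37, SE 0.0712, edgeR adjusted p = 0.000268). It lies on chromosome 17 at 37265248 to 37269451 (GRCm39), 33 bases from Polr1has, a gene on the other strand that the symbol rule also matched. Polr1has carries an antisense symbol, and at 9.29 and 7.70 CPM it had a log2 fold change of -0.27 that was not called (edgeR adjusted p = 0.0774, and 0.0368 without hypoxic-EV replicate 3). The subunit that completes the polymerase I set is listed in the table under its older symbol Cd3eap, so the rule did not take it in, and it rose by 0.21 (edgeR adjusted p = 0.0148).

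**Figure D2:**
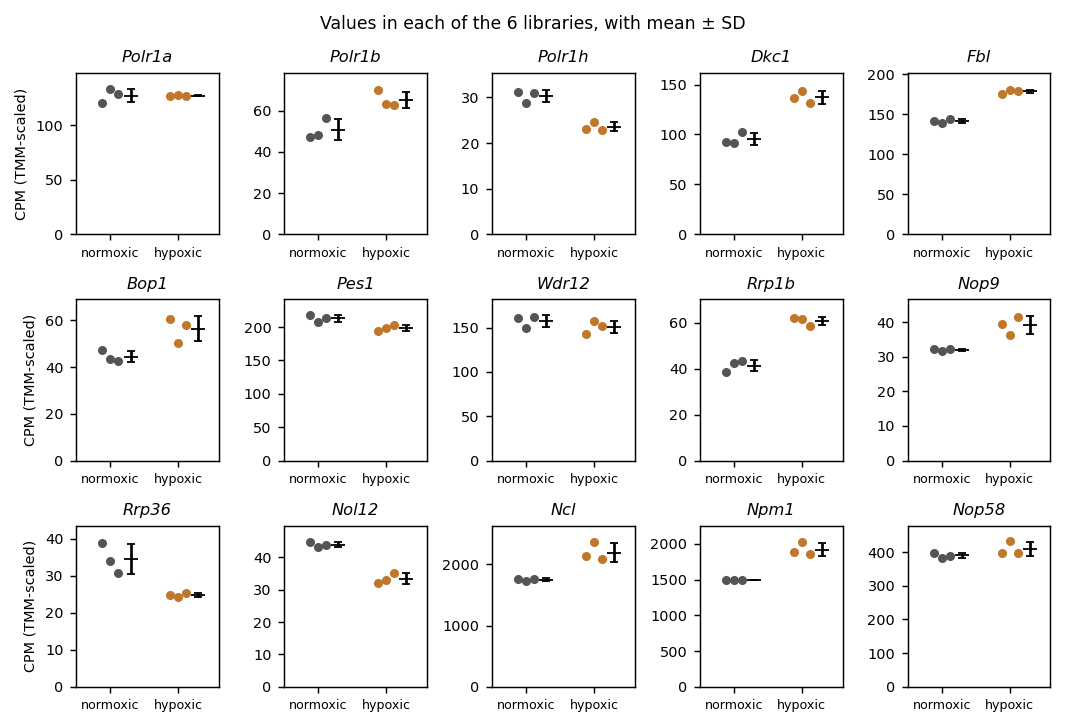
TMM-scaled CPM (y axis, from 0) of 15 members in each library of the normoxic-EV group (grey points) and the hypoxic-EV group (brown points), with the mean and SD beside them. Polr1a, Wdr12 and Nop58 overlap between the groups, and the other 12 do not.

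The small-subunit processome was the largest role, with 23 members. Of these 5 rose (21.7%), 4 fell (17.4%) and 14 were not called, near the 22.7% and 21.5% of all genes tested. The median log2 fold change was 0.03. Nop9, encoding an RNA-binding protein needed for 18S processing, had the largest increase. It stood at 32.2, 31.6 and 32.2 CPM in normoxic-EV and at 39.5, 36.2 and 41.6 CPM in hypoxic-EV. The groups did not overlap (1.22-fold, log2 fold change 0.29, SE 0.0675, edgeR adjusted p = 0.00143).

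Utp18 of the UtpB complex and Utp4 of the UtpA complex, which joins the precursor during its transcription, rose by log2 fold changes of 0.23 and 0.18 (edgeR adjusted p = 0.00297 and 0.00367). Nol7 and Nol10, nucleolar factors of 18S maturation, rose by 0.19 and 0.16 (edgeR adjusted p = 0.0178 and 0.0202). The call of Nol10 was lost without normoxic-EV replicate 1 (adjusted p = 0.0534), normoxic-EV replicate 2 (0.104) or hypoxic-EV replicate 2 (0.0697). That of Nol7 was lost without normoxic-EV replicate 3 (0.141) or hypoxic-EV replicate 1 (0.0534), and the gene overlaps the opposite-strand gene Ranbp9, which was itself called higher and had 144% as many counts.

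Of the 4 decreases in this role, those of Rrp36, Utp23 and Rrp9 were larger than each of the 5 increases. Rrp36, a factor of early 18S cleavage, stood at 38.8, 33.98 and 30.7 CPM in normoxic-EV and at 24.7, 24.3 and 25.4 CPM in hypoxic-EV. The normoxic-EV libraries were spread more widely than the hypoxic-EV libraries, and the groups did not overlap (1.39-fold lower, log2 fold change -0.47, SE 0.0802, edgeR adjusted p = 6.52e-05). Utp23, which helps release a small nucleolar RNA from the precursor, and Rrp9, a protein of the U3 snoRNP, fell by log2 fold changes of -0.38 and -0.35 (edgeR adjusted p = 0.000159 and 0.000681). Rrp9 overlaps the opposite-strand gene Parp3, which had 25.9% as many counts and a log2 fold change of 0.02.

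Imp4, part of a trimer with Imp3 and Mphosph10 that binds U3, fell by -0.15 (edgeR adjusted p = 0.0288). That call was lost when normoxic-EV replicate 1 (adjusted p = 0.0590), 2 (0.0644) or 3 (0.104) or hypoxic-EV replicate 2 (0.137) was left out, without the low-count filter (0.0633), and with limma on log2(FPKM + 0.1) (0.0813) and log2(FPKM + 1) (0.0834). Imp3, at -0.05, was not called (edgeR adjusted p = 0.596). Other members that were not called included the UtpA genes Utp15 and Nol11 at -0.05 and 0.0089, the UtpB gene Utp6 at 0.07, the scaffold genes Utp20 and Nop14 at 0.05 and 0.07, and Rrp12, which acts in pre-40S export, at 0.03. Utp14b, a retrogene copy of Utp14a, had the lowest FPKM of the tested members and overlaps Acsl3 on the same strand, a gene with 517% as many counts.

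The core proteins of the snoRNPs showed 3 increases and 0 decreases among 5 members, beside 22.7% and 21.5% of all genes tested. In so small a role, 0 decreases says little. Dkc1 encodes dyskerin, the pseudouridine synthase of box H/ACA snoRNPs, which is also part of telomerase. It stood at 93.0, 91.7 and 102 CPM in normoxic-EV and at 136, 144 and 132 CPM in hypoxic-EV. The groups were well apart (1.43-fold, log2 fold change 0.52, SE 0.0538, edgeR adjusted p = 1.06e-07). Dkc1, at 74139460 to 74153383 on chromosome X (GRCm39), overlaps the opposite-strand gene Mpp1, which had 124% as many counts, a log2 fold change of -0.04 and no call. Nop10, a small partner of dyskerin, had a log2 fold change of -0.14 that was not called (edgeR adjusted p = 0.0562, 0.0499 with RLE scaling and 0.00893 without hypoxic-EV replicate 3).

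Fbl encodes fibrillarin, the methyltransferase of box C/D snoRNPs, which holds Nop56 and Nop58 as partners. Fbl stood at 141, 139 and 144 CPM in normoxic-EV and at 176, 180.5 and 179 CPM in hypoxic-EV. The libraries of a group lay close together and the groups did not overlap (1.26-fold, log2 fold change 0.34, SE 0.0451, edgeR adjusted p = 3.41e-06). Nop56 rose by 0.22 on the log2 scale (edgeR adjusted p = 0.000493), and the overlapping opposite-strand gene Idh3b had 45.3% as many counts and a log2 fold change of 0.06. Nop58 had 0.07 and was not called (edgeR adjusted p = 0.269).

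Of 13 members that act in large-subunit assembly and processing, 6 rose (46.2%) and 1 fell (7.69%), with a median log2 fold change of 0.14. Over all genes tested the shares were 22.7% and 21.5%. Rrp1b had the largest increase of all members. It encodes a nucleolar protein related to Rrp1 and lies on chromosome 17 at 32255074 to 32281839 (GRCm39). Its values were 38.5, 42.3 and 43.1 CPM in normoxic-EV and 62.0, 61.5 and 58.7 CPM in hypoxic-EV. Each hypoxic-EV library exceeded each normoxic-EV library (1.47-fold, log2 fold change 0.55, SE 0.0604, edgeR adjusted p = 2.2e-07), while the paralog Rrp1 had 0.04 and was not called (edgeR adjusted p = 0.544).

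Nop53, which takes part in removal of the second internal spacer, rose by 0.34 (edgeR adjusted p = 1.39e-05). Nol9, a polynucleotide kinase of the same spacer, rose by 0.28, and Nop2, a methyltransferase of 28S ribosomal RNA, by 0.18. The pre-60S factor gene Rrp15 rose by 0.19 (edgeR adjusted p = 0.0276), a call that was lost without normoxic-EV replicate 2 (adjusted p = 0.174), normoxic-EV replicate 3 (0.0633) or hypoxic-EV replicate 2 (0.0792), and with DESeq2 (0.0534). Nol12, an RNA-binding protein of spacer processing, fell. Its values were 44.6, 43.2 and 43.9 CPM in normoxic-EV and 32.0, 33.1 and 35.2 CPM in hypoxic-EV. The groups did not overlap (1.31-fold lower, log2 fold change -0.39, SE 0.0633, edgeR adjusted p = 3.68e-05).

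Bop1, Pes1 and Wdr12 encode the PeBoW complex, which is needed for 28S and 5.8S processing, and 1 of the 3 was called. Bop1 stood at 47.2, 43.6 and 42.5 CPM in normoxic-EV and at 60.8, 50.5 and 57.9 CPM in hypoxic-EV. The groups did not overlap, and hypoxic-EV replicate 2 was nearest to normoxic-EV (1.27-fold, log2 fold change 0.34, SE 0.0689, edgeR adjusted p = 0.000351). Pes1 stood at 218, 207 and 214 CPM in normoxic-EV and at 194, 198 and 203 CPM in hypoxic-EV, a separation with a log2 fold change of -0.10 that was not called (edgeR adjusted p = 0.0694) but was with limma on log2(FPKM + 0.1) (adjusted p = 0.0407) and log2(FPKM + 1) (0.0386). Wdr12 stood at 161, 150.0 and 162 CPM and at 143, 157 and 152 CPM, with overlap (log2 fold change -0.07, edgeR adjusted p = 0.308). The opposite-strand gene Mroh1, which overlaps Bop1, had 185% as many counts and a log2 fold change of 0.01.

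Ratios of partner transcripts within a library do not depend on how libraries are scaled, so 6 pairs are described. They were chosen after the fold changes had been seen, each with a called increase over a partner that was not called, so the choice fixed their direction and no test is given. The FPKM ratio of Polr1b to Polr1a was 0.815 ± 0.0797 under normoxic-EV and 1.05 ± 0.0647 under hypoxic-EV (SD, n = 3). That of Bop1 to Pes1 was 0.213 ± 0.00952 and 0.291 ± 0.0302, and that of Bop1 to Wdr12 was 1.14 ± 0.0690 and 1.52 ± 0.209. The ratio of Dkc1 to Nop10 had the largest difference of mean log2 ratios, 0.67, at 0.320 ± 0.0281 and 0.509 ± 0.0566. Fbl and Nop56, each set against Nop58, had ratios of 0.926 ± 0.0191 and 1.65 ± 0.0145 in normoxic-EV and of 1.12 ± 0.0455 and 1.84 ± 0.0578 in hypoxic-EV. Bop1 and Nop58 each enter a pair of these ratios, which are therefore not independent of each other. The size of each ratio also depends on the gene lengths used in FPKM, while its change between groups does not.

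**Figure D3:**
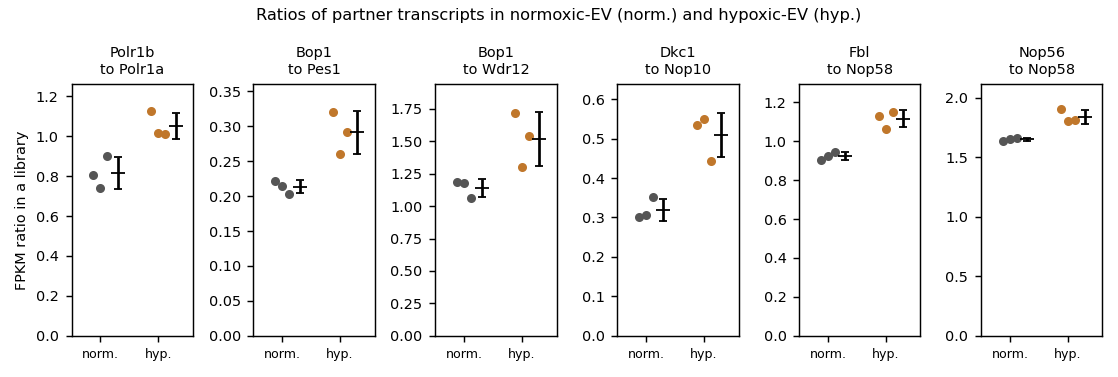
FPKM ratio (y axis, from 0) of 6 pairs of transcripts whose proteins share a complex, in each library of the normoxic-EV (grey) and hypoxic-EV (brown) groups, with mean and SD. By the choice of pairs, the 3 hypoxic-EV libraries lie above the 3 normoxic-EV libraries. The difference of the mean log2 ratios is largest for Dkc1 to Nop10.

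Levels between genes were compared per length, as the authors' FPKM. Npm1 was highest at 561 ± 1.86 FPKM under normoxic-EV and 719.5 ± 31.8 FPKM under hypoxic-EV (SD, n = 3), followed by Ncl at 171 ± 1.66 and 215 ± 14.0 FPKM. The gene lengths behind these FPKM were 2665 bases for Npm1 and 10188 bases for Ncl. By CPM, Ncl was the higher, at a mean of 1749 against 1497 in normoxic-EV. The order between genes thus depends on these lengths, and their match to the transcripts expressed was not tested. All other tested members lay between 1.63 (Utp14b) and 72.6 FPKM (Nop10) in normoxic-EV, with 45 of 52 at 10 FPKM or more. The median member stood at 19.1 FPKM in normoxic-EV and 18.9 FPKM in hypoxic-EV. The order of levels was nearly the same in both groups, with Spearman's rho across the 52 genes of 0.976, a description over genes that share libraries. Spearman's rho of the members' log2 fold changes was 0.25 with level and 0.07 with length, beside 0.07 and 0.05 over all genes tested.

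**Figure D4:**
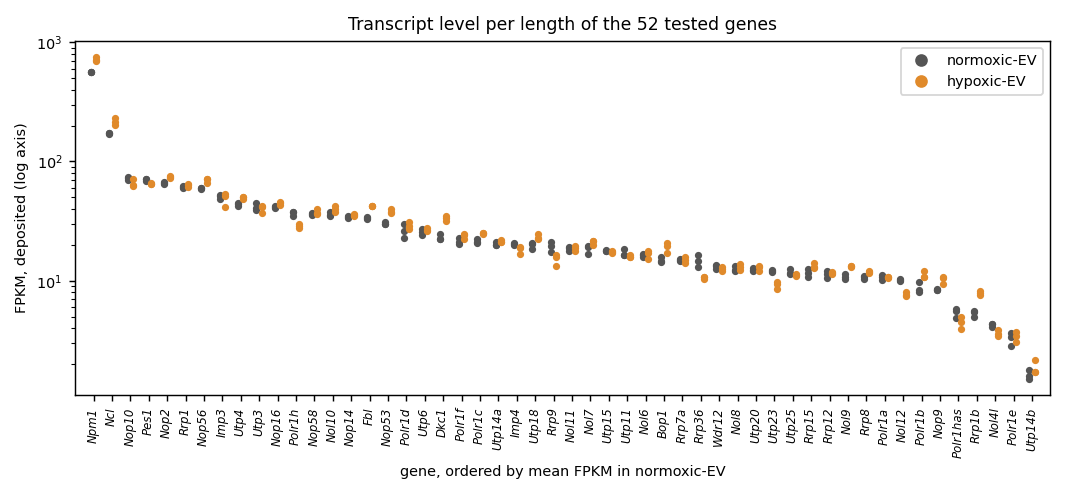
Deposited FPKM (y axis, log scale) of the 52 tested members in each library of the normoxic-EV (grey) and hypoxic-EV (orange) groups, ordered by mean level in normoxic-EV. Npm1 and Ncl stand above all others, which lie between 1.63 and 72.6 FPKM in normoxic-EV.

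Symbols matched by name only were kept in the counts. Nol4l, which is not known as a ribosome biogenesis factor, fell and is 1 of the 7 decreases. It stood at 37.7, 39.6 and 39.2 CPM in normoxic-EV and at 34.8, 33.0 and 31.8 CPM in hypoxic-EV, without overlap (log2 fold change -0.23, edgeR adjusted p = 0.00637). Without Nol3, Nol4, Nol4l and Polr1has, 19 of 50 members rose and 6 fell. Another gene overlaps 7 members at 20% or more of their own count (Bop1, Dkc1, Nol7, Nop56, Polr1e, Rrp9 and Utp14b). Without these 7, 15 of 45 rose (33.3%) and 6 fell (13.3%). Among all genes tested, 22.7% rose and 21.5% fell. Both subsets were chosen after the data were seen.

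Genes of the same pathway outside the symbol rule were read from 5 lists. Of their 100 genes, 32 rose and 14 fell, with a median log2 fold change of 0.05, beside the 22.7% and 21.5% of all genes tested. Among 12 other snoRNP proteins and assembly factors, 6 rose and 0 fell, led by Nhp2, a box H/ACA core protein gene, at 0.59 (82.7 ± 5.01 to 124 ± 3.43 CPM, SD, n = 3, edgeR adjusted p = 1.24e-08). Among 26 other small-subunit factors, 9 rose and 3 fell, from Ngdn at -0.54 to Wdr46 at 0.44. Of 37 other pre-60S factors, 8 rose and 6 fell, from Sbds, whose product helps free the 60S subunit of Eif6, at -0.55 to Ppan at 0.39. In the RNA exosome, which trims precursor ends, 5 of 13 rose and 2 fell, from Exosc4 at -0.44 to Exosc8 at 0.35.

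Of 12 genes for polymerase I transcription factors and subunits shared with other polymerases, 4 rose (33.3%) and 3 fell (25.0%). The shares of all genes tested were 22.7% and 21.5%. Ubtf, encoding the factor that keeps ribosomal DNA open, rose by 0.25 on the log2 scale, from 201 ± 6.20 to 239 ± 4.15 CPM (SD, n = 3, edgeR adjusted p = 0.000116). Rrn3, the initiation factor that recruits the polymerase, stood at 105 ± 4.61 and 111 ± 3.45 CPM and was not called (log2 fold change 0.07, edgeR adjusted p = 0.277). Polr2e had the largest rise of this list at 0.32 and Polr2k the largest fall at -0.42. In a list of 8 genes of nucleolar stress and growth control, 5 of 7 tested (71.4%) rose and 0 fell, and Cdkn2a had 0 counts. The largest rise was that of Mdm2 at 0.25, but its groups overlapped, as did those of Trp53, which was also called higher.

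**Figure D5:**
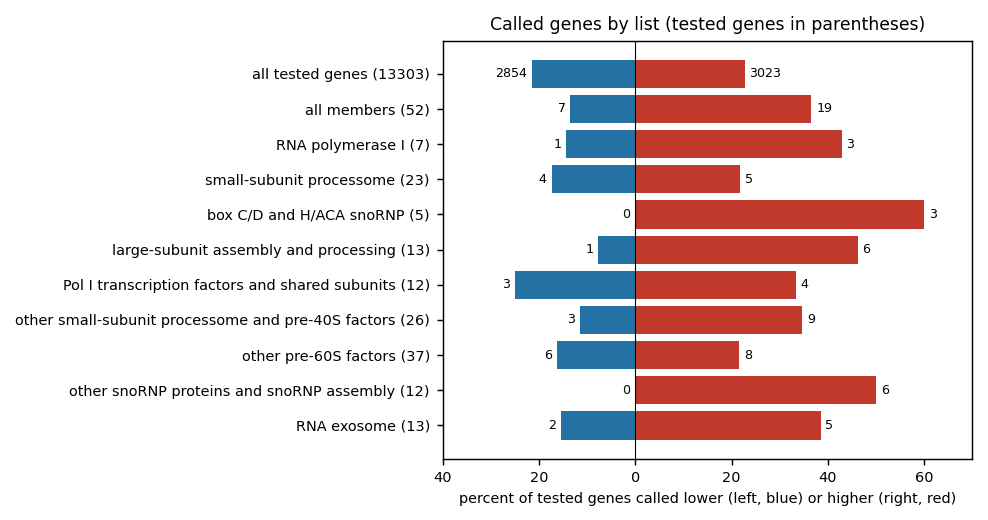
Percent of tested genes called higher (right, red) or lower (left, blue) in hypoxic-EV for all genes, all members, 4 roles of the members and 5 lists of other pathway genes, with the number called beside each bar and the number tested in parentheses. Both snoRNP lists have no gene called lower, and the share of all tested genes is 22.7% higher and 21.5% lower.

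MYC proteins, which bind with MAX to the E-box CACGTG, are well known regulators of ribosome biogenesis genes, and a list of their network was read beside the members. Myc fell from 20.5, 16.6 and 18.7 CPM in normoxic-EV to 11.6, 10.4 and 9.64 CPM in hypoxic-EV (1.77-fold lower, edgeR adjusted p = 1.09e-06). Mycn, at 94.7 FPKM in normoxic-EV against 6.83 FPKM for Myc, rose from 302, 312 and 324 CPM to 518, 477 and 484 CPM (log2 fold change 0.66, edgeR adjusted p = 4.66e-10). Neither gene had overlapping groups. Of 11 tested genes of this network, 3 rose and 3 fell (27.3% each), beside 22.7% and 21.5% of all genes tested. The part of Myc or Mycn in the levels of the members was not tested.

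Promoter windows from 250 bases before to 50 after a start were found for 40 of 54 members in RefSeq's set (GRCm38.p6), as 49 windows. CACGTG, the same on both strands, was present in 12 of these (24.5%) and in 7.15% of all 32851 windows, which include noncoding genes. The shorter ACGTG, searched on both strands and contained in every CACGTG, was present in 44.9% of member windows and 19.6% of all. GGGCGG, on either strand, was present in 63.3% and 35.7%, and a palindrome of 10 bases known as the NRF1 motif in 0 of 49 and 0.971%. CACGTG was found for 3 of 14 matched members called higher, 1 of 5 called lower and 6 of 21 not called. GGGCGG was found for 13 of 14, 3 of 5 and 12 of 21. No test was made on these counts, and a match is a description of the letters and not a binding site.

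For 7 members the E-box lay upstream of the start, and 4 are shown because they span the calls, with the E-box in capitals. They come from Nop2 and Utp18, which rose, Imp4, which fell, and Nol11, which was not called. The E-box begins 60, 20, 121 and 43 bases before the start, in that order, and the windows are chr6:125131796-125131855 (plus strand), chr11:93885767-93885826 (minus strand), chr1:34439681-34439740 (plus strand) and chr11:107189392-107189451 (minus strand) in GRCm38.p6.
Nop2: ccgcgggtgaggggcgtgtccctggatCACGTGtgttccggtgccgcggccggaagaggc
Utp18: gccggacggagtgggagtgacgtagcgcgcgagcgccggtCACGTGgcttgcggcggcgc
Imp4: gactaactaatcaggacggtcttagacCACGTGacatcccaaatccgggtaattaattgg
Nol11: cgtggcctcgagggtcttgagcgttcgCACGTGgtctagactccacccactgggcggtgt
These 4 windows were chosen to span the calls, so they do not show how the E-box relates to a call. That relation was not tested. The call of Imp4 was lost under several of the other settings.

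Small nucleolar RNAs are often cut from introns of genes for the translation machinery, and several members are such hosts. On the same strand, 5 of 52 tested members (9.62%) contained at least 1 annotated snoRNA gene, beside 1.75% of 11345 tested protein-coding genes. They were Nop56 with 5 snoRNA genes, Nop58 with 4, Ncl with 3, and Dkc1 and Nop53 with 1 each. Of these hosts 4 rose and 0 fell, with Nop58 not called, beside 80 that rose and 28 that fell of the 199 tested protein-coding hosts. The snoRNA genes themselves had between 0 and 38 counts summed over all libraries, so their own levels could not be compared in these poly(A) libraries. Members lie on 18 chromosomes, and apart from Polr1h and Polr1has the nearest neighbours were Nop58 and Wdr12, 350741 bases apart on chromosome 1.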

How the data were processed

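Per the submitters' processing notes, reads were handled with HISAT2, featureCounts and DESeq2 on GRCm39, with versions, annotation, strand and multi-mapping settings not given in the sources used here. The authors deposited raw counts per gene and FPKM, which equalled counts per library total and a fixed gene length. They also deposited normalized counts (a signal, counts over 1 size factor per library, not used in tests) and a table of their comparison with log2 fold changes, a test statistic (a score), p-values and mean counts for 462 genes.

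The count test was that of edgeR 4.0.16 under R 4.3.3 (filterByExpr with minimum count 10 and minimum total 15, TMM, quasi-likelihood F-test, two-sided, group as the only term), fitted on all 13303 genes that passed, with Benjamini-Hochberg adjustment over all of them. The fit was run on simulated data with the same dispersion for every gene and few changed genes. That setting is unlike the real data, so it does not bear on the calls given here. SE is the log2 fold change over the square root of F. Library pairs of a group differed by more than counting noise (chi-square per degree of freedom 2.72 to 5.84). Alternatives used DESeq2 1.42.0, limma 3.58.1, other scalings, no filter, FPKM with pseudocounts of 0.1 and 1, and each library left out.

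Members, roles and lists were chosen with earlier results of these data known. Values in every library are given for Polr1a, Polr1b, Fbl, Ncl, Npm1, Dkc1, Bop1, Pes1, Wdr12 and for the largest called rise and fall in each role, and for Npm1 as the member with the highest FPKM. Of each pathway list the largest called rise and fall are named, with Ubtf, Rrn3 and Myc. Other members are given by fold change, and Polr1has, Cd3eap and the partner ratios were chosen after their values were seen. Lists got counts and medians and no list test. A further marker list is not reported here as a whole.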

Additional observations from a re-analysis of the deposited data

How the results depend on the processing

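Under 14 other settings, 21 of the 26 called members kept their direction and call in each, and 345 of 364 values did so. Rrp15, Polr1f, Nol10, Nol7 and Imp4 lost the call 19 times in all, and 0 changed direction. Counts of members called ran from 16 to 19 higher and from 6 to 9 lower with each library left out. Over all genes tested in those fits, 13432 to 13762, the calls ran from 2547 to 3014 higher and from 2390 to 2764 lower. The median log2 fold change of the members ran from 0.05 to 0.09. With the replicate number as a block (replicate block) 19 members were higher and 7 lower, beside 2910 and 2752 of all 13303 genes tested. The median of the members was then 0.07. Same-numbered libraries did not deviate together (correlations of deviations -0.016, -0.018 and -0.018), so the numbers were not taken to pair the samples, and no library correlated best with its own number. Among the 26 uncalled members, 5 (Nop10, Polr1d, Polr1has, Pes1 and Rrp8) became called in 9 values, and 8 changed sign, none of them called. Rrp7a, at 7.0e-06, had -0.0043 with DESeq2, -0.0040 with RLE scaling, -0.00081 with library totals, -6.5e-05 with limma-voom, -0.0013 with the replicate block, and -0.0040 and -0.0037 with limma on FPKM. Polr1a had 0.013 without the low-count filter. With a library left out, Rrp7a ranged from -0.049 to 0.036, Polr1a from -0.034 to 0.025, Nol11 from -0.029 to 0.051, Rrp12 from -0.027 to 0.081, Polr1e from -0.025 to 0.16, Imp3 from -0.11 to 0.046, Nol6 from -0.018 to 0.095 and Utp3 from -0.097 to 0.0012; the cause was not tested. Polr1e, Utp14b and Polr1has had the lowest CPM of the tested members, with means under 15 CPM in either group, and the largest SE (0.11, 0.11 and 0.12).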
